A study of Mus musculus with 2 samples.

Results

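Among mouse embryonic stem cells (ESCs) grown in serum/LIF medium, cells with the most mRNA of the amino acid stress genes Chac1, Trib3, Nupr1, Pck2 and Gpt2 were compared with cells that had none of it. The 503 high cells, called members here, were the highest 5% of the 10065 ESCs that met the limits below, and the series holds 25611 cell barcodes in all. Members carried at least 1.5-fold more mRNA of several enzymes that make serine, asparagine and proline (Psat1, Psph, Asns, Pycr1 and Aldh18a1). The same held for 4 of the 20 cytosolic enzymes that charge tRNAs with amino acids, and for the stress regulators Atf4, Ddit3 and Cebpb. Of all 9244 measured genes, 189 (2.04%) were higher by that fold. The median ATF4-pathway gene was 0.42 higher on the log2 scale, against 0.02 for all measured genes. Other lists were shifted as much, with medians of 0.43 for hypoxia-response and glycolysis genes and 0.42 for immediate early genes. The medians for targets of p53 and NRF2, ribosome assembly genes and mitochondrial tRNA-charging enzymes lay between -0.12 and 0.04. Each library mixed equal numbers of Cnot8 knockout (KO) cells and of wild-type (WT) cells, in which tdTomato mRNA comes from the ROSA mT/mG allele. The genotype label of both samples reads wild type, and the mixture is given by the protocol. ESCs were taken at 0 h, and a second library held 48h-EpiLCs, epiblast-like cells at 48 h. Cnot8 encodes a deadenylase, an enzyme that shortens poly(A) tails. The mice of the study were of the ICR strain, and the paper gives no separate strain for the WT line. The KO line was derived from blastocysts of heterozygote matings, and the feeder layer was made of mitomycin C-treated embryonic fibroblasts. There was 1 library per stage, so no difference has a replicate check, no test was run, and stage cannot be told apart from library.

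Cells keep a watch on amino acid supply through kinases such as GCN2 (Eif2ak4), which phosphorylate the initiation factor eIF2 when uncharged tRNAs build up. Most translation then slows, while translation of the Atf4 mRNA is favoured. ATF4 is a transcription factor that pairs with C/EBP proteins and turns on genes for amino acid synthesis, uptake and tRNA charging, together with feedback genes. The same branch answers to stress of the endoplasmic reticulum (ER) through PERK (Eif2ak3), so its targets mark the pathway and not one trigger. Of the 5 score genes, Chac1 encodes an enzyme that breaks down glutathione, and Trib3 a pseudokinase that restrains ATF4. Nupr1 encodes a small stress-induced chromatin protein, Pck2 the mitochondrial PEP carboxykinase, and Gpt2 the mitochondrial alanine transaminase.

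ATF4 and C/EBP proteins bind together at an 8-base element written TGATGNAA, in which N is any base, and TTNCATCA on the other strand. The element was looked for on both strands of the RefSeq promoters of GRCm38.p6, each running from 250 bases before to 50 bases after a gene's start. It was found in 4 of the 5 score genes, in 15 of the 52 ATF4-pathway genes that had a promoter in the table (28.8%), and in 1219 of all 27025 gene symbols (4.51%). Over single promoters the share was 3.97%. The stretches around the element are shown for the 4 score genes and for Herpud1 and Asns, which stand among the highest genes described below. Capitals mark the element, and each sequence is read along the strand of its gene.
Chac1: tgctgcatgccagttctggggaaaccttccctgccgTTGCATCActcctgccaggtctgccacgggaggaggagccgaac
Trib3: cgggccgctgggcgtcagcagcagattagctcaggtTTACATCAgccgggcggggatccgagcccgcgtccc
Nupr1: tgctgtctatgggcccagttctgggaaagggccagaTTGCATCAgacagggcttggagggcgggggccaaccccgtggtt
Pck2: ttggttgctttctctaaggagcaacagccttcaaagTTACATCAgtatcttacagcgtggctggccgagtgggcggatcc
Herpud1: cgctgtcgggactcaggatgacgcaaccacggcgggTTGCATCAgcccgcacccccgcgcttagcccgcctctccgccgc
Asns: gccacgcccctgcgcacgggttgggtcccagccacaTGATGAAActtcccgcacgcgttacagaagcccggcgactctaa

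These stretches lie at chr2:119351013-119351092 for Chac1 (+ strand), chr2:152344011-152344082 for Trib3 (- strand), chr7:126625537-126625616 for Nupr1 (- strand), chr14:55540127-55540206 for Pck2 (+ strand), chr8:94386281-94386360 for Herpud1 (+ strand) and chr6:7693189-7693268 for Asns (- strand). In Nupr1, Pck2 and Herpud1 the element sat at similar places, from positions -110, -103 and -112 relative to the start. It began at position -193 in Chac1 and at -23 in Asns, and lay just after the start in Trib3. These starts are those of the RefSeq promoters. They can differ from the bounds of the GENCODE genes given below, as for Trib3 and Nupr1. The promoter of Gpt2 held no match to these letters. A match describes the sequence and is not evidence of binding in these cells. Of the 17 measured ATF4-pathway genes with a promoter that were at least 1.5-fold higher in members, 4 held the element, as did 5 of the other 25. These are shares of 23.5% and 20.0%. Within the ATF4 pathway the share ran from 0 of 8 promoters for the serine, glycine and one-carbon enzymes to 3 of 6 for the other amino acid synthesis enzymes. Of the lists outside it, the S-phase list held the element in 2 of 15 promoters, the cholesterol list in 1 of 8 and the naïve list in 1 of 9, and the eIF2 kinases and the p53, NRF2 and hypoxia lists in none.

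Members were selected on the score itself, which is the number of unique molecular identifiers (UMIs, counted mRNA molecules) of the 5 genes per 10000 UMIs of the cell. A cell was kept with at least 1000 detected genes, at most 10% mitochondrial UMIs, and no UMI of Col1a2 (a fibroblast collagen) or Gata6 (a primitive endoderm factor). Of 13184 ESC barcodes, 11054 met the first limits, and 989 of these were left out by Col1a2 or Gata6. The comparison group was the 5120 cells of score 0 (50.9%), and the other 4442 cells lay between. The lowest member scored 3.086 and the highest cell outside 3.085, so no gap set members apart. The 10 members just inside reached 3.127, and the 10 cells just outside started at 3.073. The median member scored 4.23, the median of the other cells above 0 was 1.00, and the highest member, with 62 Nupr1 UMIs, scored 104.5 against 24.2 for the next.

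**Figure D1:**
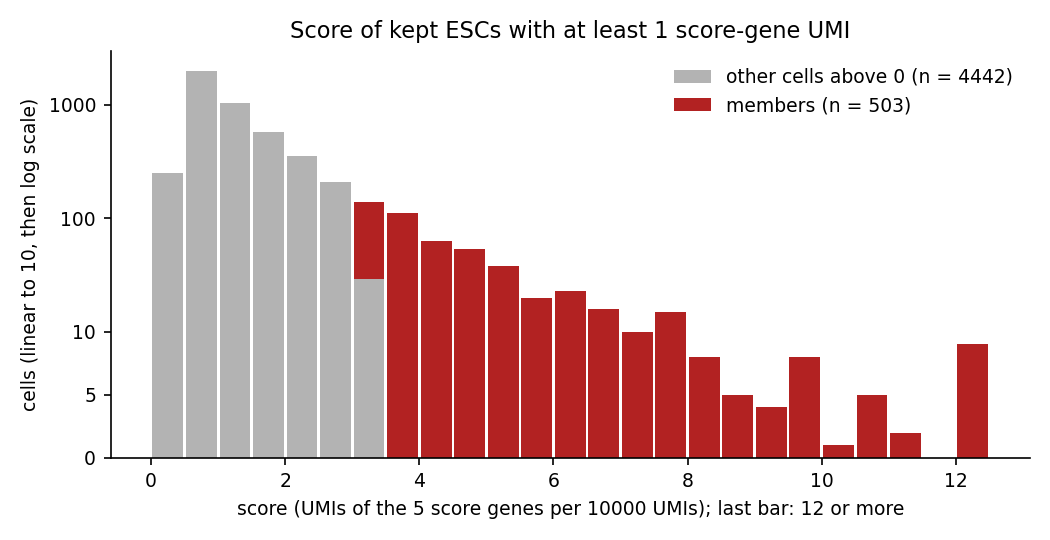
Number of kept ESCs by score (UMIs of the 5 score genes per 10000 UMIs), for the 503 members (red) and the 4442 other cells above 0 (grey). The counts fall without a gap through the limit near 3.09, and 9 members reach 12 or more.

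The score genes are at chr2:119351229-119354381 (Chac1), chr2:152337422-152344032 (Trib3), chr7:126623249-126630861 (Nupr1), chr14:55540266-55551242 (Pck2) and chr8:85492576-85527560 (Gpt2) in GENCODE M21 on GRCm38. Nupr1 was found in 375 of the 503 members (74.6%, exact 95% interval 70.5 to 78.3) at 186.8 UMIs per 1000000 UMIs of the group (CPM). Trib3 was found in 304 members (60.4%) at 92.0 CPM, and Pck2 in 282 (56.1%) at 91.5 CPM. Gpt2 was found in 267 members (53.1%) at 72.2 CPM, and Chac1 in 204 (40.6%) at 54.2 CPM. These values follow from the rule and describe it. Over all kept ESCs the 5 genes lay between 5.71 CPM (Chac1) and 22.1 CPM (Nupr1).

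Most members held several of the genes. Exactly 1 of the 5 was detected in 68 members, 2 in 127, 3 in 163, 4 in 104 and all 5 in 41. Among the other cells above 0, 69.8% held just 1. The score rests on few molecules, with a median of 5 score-gene UMIs per member, quartiles of 3 and 7, and 2829 UMIs in all. After every cell had been thinned to 5000 UMIs, 285 of the 481 cells in the highest 5% had been members before (59.3%), and 440 shallow cells could not be scored. Members had a median of 10668 UMIs, score-0 cells 11058.5 and the other cells 12944.5. Mitochondrial UMIs were 3.63% in members and 4.01% in score-0 cells (medians), and ribosomal protein UMIs 21.8% and 21.5%.

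Each score gene was then left out in turn and the cells were scored by the other 4, so that the gene's own level was not part of the choice. All 5 remained higher in the high cells. Chac1 was at 37.4 CPM in the highest 5% and 2.67 CPM in cells of score 0, a ratio of 14.0 (11.4 to 17.3, exact binomial interval conditional on both counts, as for every ratio here). Nupr1 was 6.54-fold higher (5.88 to 7.27), Trib3 4.75-fold (4.17 to 5.40), Pck2 4.71-fold (4.10 to 5.40) and Gpt2 3.04-fold (2.64 to 3.49). Chac1 was detected in 27.8% of those high cells and in 2.88% of those at 0. Against all other kept cells the ratios were lower, from 2.67 (Gpt2) to 8.84 (Chac1). These intervals cover counting error only. The rule was set with earlier results of these data known, so the ratios describe how the 5 genes vary together. They are no independent check.

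Across all genes, 9244 reached 5 CPM over the kept ESCs besides the score genes, and these are the measured genes. A gene counted as higher or lower past 1.5-fold on CPM + 1, with no p-value. Of all measured genes 189 were higher in members (2.04%) and 68 were lower (0.736%). Of the 66 ATF4-pathway genes in 6 lists, 57 were measured, 21 were higher past that fold and none was lower. A log2 ratio above 0 was found in 49, and 47 lay above the median of all measured genes (0.02). Summed, the 57 genes stood at 6860 CPM in members and 4785 CPM in score-0 cells, a ratio of 1.43 (1.42 to 1.45). The score genes are not in these lists. The other 9 (Atf3, Jdp2, Vldlr, Gdf15, Fgf21, Aldh1l2, Slc7a11, Slc6a9 and Slc1a4) were under the level filter, between 0.24 and 4.62 CPM over all kept ESCs, and are not in the counts.

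**Figure D2:**
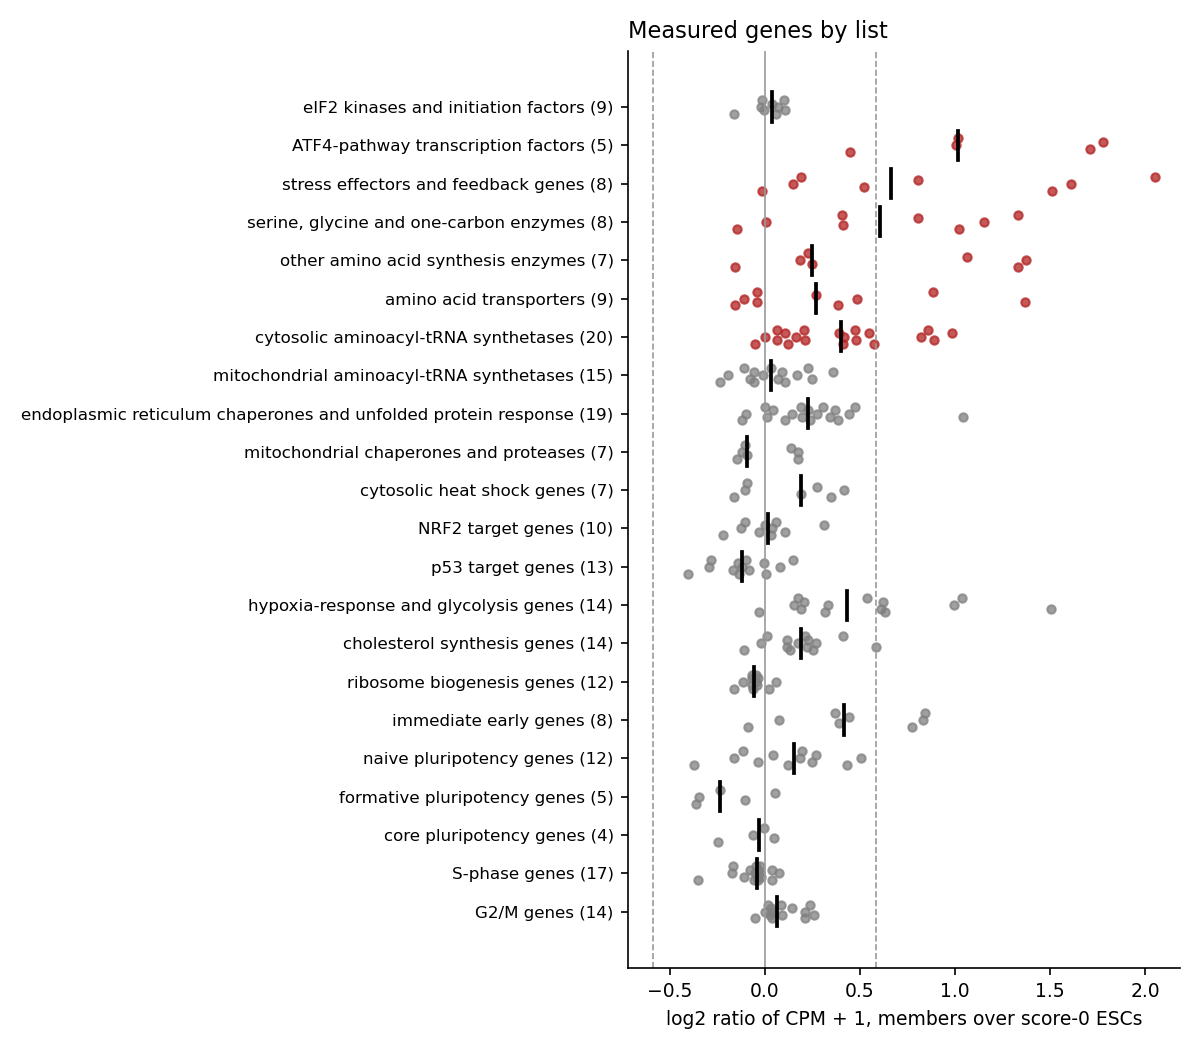
Log2 ratio of CPM + 1, members over score-0 ESCs, for each measured gene of 22 lists (points; number measured in brackets), with the list median (black bar) and the 1.5-fold limits (dashed). ATF4-pathway lists are red and reach 2.05, with 21 of their 57 genes past the upper limit. Among the other lists (grey), the hypoxia list has 6 of 14 past it and the immediate early list 3 of 8. Most other grey points stay within the limits.

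Of the 5 measured transcription factors of the pathway, 4 were higher past 1.5-fold, and Cebpb and Ddit3 were among the 15 highest ratios of all measured genes. Cebpb, a partner of ATF4, was at 34.9 CPM (30.2 to 40.1, exact binomial interval) in members and 9.45 CPM (8.68 to 10.3) in score-0 cells, 3.70-fold higher (3.13 to 4.35). Ddit3, which encodes the stress factor CHOP, was at 39.3 CPM (34.3 to 44.8) and 11.3 CPM (10.5 to 12.2), 3.47-fold higher (2.97 to 4.05). It was detected in 25.05% of members and 11.2% of score-0 cells. The 3 highest members held 15.2% of its UMIs in members, and without them it was 2.97-fold higher (2.51 to 3.49). Ddit3 lies at chr10:127290774-127296288, its exons overlap those of Mars on the opposite strand, and its symbol stands for 2 identifiers, of which the one with more UMIs was used. Whether the counting used strand was not stated. Atf4 itself was at 413.2 CPM (396.7 to 430.3) and 205.2 CPM (201.5 to 208.9), 2.01-fold higher (1.93 to 2.10). It had a UMI in 87.3% of members and 84.1% of score-0 cells, so both groups had similar detection at unlike amounts. Atf5, a related factor, was 2.10-fold higher (29.3 and 14.0 CPM), and Cebpg, another partner, 1.39-fold (21.6 and 15.5 CPM). The kinases and eIF2 factors upstream were flat at the mRNA level. Their 9 measured genes had a median log2 ratio of 0.04, from -0.16 for Eif2ak3 to 0.11 for Gcn1, and none passed 1.5-fold.

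Among stress effectors, 4 of 8 measured genes were higher past 1.5-fold. Herpud1, which serves the removal of misfolded ER proteins and lies at chr8:94386438-94395377, had the highest ratio of all measured genes. It was at 39.0 CPM (34.0 to 44.4) in members and 8.65 CPM (7.91 to 9.44) in score-0 cells, 4.51-fold higher (3.83 to 5.29). Ddit4, an inhibitor of mTORC1, was 3.12-fold higher (88.5 and 28.3 CPM), and the secreted glycoprotein gene Stc2 3.17-fold (18.6 and 5.87 CPM). The ER oxidase gene Ero1l was 1.77-fold higher (52.1 and 29.4 CPM), and Sesn2, a sensor that restrains mTORC1, 1.45-fold (50.4 and 34.8 CPM). Ppp1r15a, whose product directs the dephosphorylation of eIF2, was at 44.2 and 38.6 CPM, a ratio of 1.15 (1.00 to 1.31).

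The enzymes of serine and one-carbon metabolism had 4 of 8 measured genes past 1.5-fold. Mthfd2, the mitochondrial one-carbon enzyme, was at 256.1 CPM (243.2 to 269.6) in members and 101.0 CPM (98.5 to 103.6) in score-0 cells, 2.54-fold higher (2.39 to 2.69). It was detected in 80.3% of members and 62.2% of score-0 cells. The serine synthesis enzymes Psph and Psat1 were 2.25-fold (122.0 and 54.2 CPM) and 2.04-fold higher (194.7 and 95.4 CPM). Phgdh, which starts that pathway, was 1.33-fold higher (134.5 and 100.9 CPM). Shmt2, the mitochondrial serine hydroxymethyltransferase, was 1.76-fold higher (136.6 and 77.7 CPM), with an exon overlap on the opposite strand with Ndufa4l2. The cytosolic counterparts Shmt1 and Mthfd1, chosen for this contrast after their values had been seen, had ratios of 1.01 (0.91 to 1.11) and 0.90 (0.83 to 0.98).

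Among 7 other amino acid synthesis enzymes, 3 were past 1.5-fold. Asns, which makes asparagine, was at 179.6 CPM (168.7 to 190.9) and 85.5 CPM (83.2 to 87.9), 2.10-fold higher (1.96 to 2.25). The proline enzymes Aldh18a1 and Pycr1 were 2.80-fold (21.2 and 7.59 CPM) and 2.81-fold higher (14.4 and 5.12 CPM). The aminotransferase genes Bcat1 and Got1 had ratios of 1.19 and 1.17, and Cth, of cysteine synthesis, 1.14.

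Amino acid transporters were less uniform, with 5 of 9 measured genes above a log2 ratio of 0, 4 below it, 2 past 1.5-fold and a median of 0.27. Slc7a1, which imports arginine and lysine, was 2.66-fold higher (56.2 and 21.2 CPM), and Slc1a5, which imports glutamine and other neutral amino acids, 1.87-fold (62.8 and 33.6 CPM). Slc3a2, the heavy chain of several transporters, was 1.40-fold higher (295.8 and 211.3 CPM) and Slc38a1 1.31-fold (105.5 and 80.4 CPM). Slc7a5 and Slc43a1 were low in both groups, and their intervals held 1.

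The cytosolic aminoacyl-tRNA synthetases, which load amino acids onto tRNAs, differed from their mitochondrial counterparts. Of the 20 cytosolic genes 19 had a log2 ratio above 0, and 18 lay above the median of all measured genes. Their median was 0.40, and 4 were past 1.5-fold. These were Cars (cysteine), at 99.9 and 49.98 CPM and 2.00-fold higher (1.82 to 2.19), Sars (serine) at 1.86-fold, Nars (asparagine) at 1.82-fold and Aars (alanine) at 1.77-fold. Mars (methionine), with an opposite-strand overlap with Ddit3, followed at 1.498-fold and Iars (isoleucine) at 1.47-fold. Both stayed just short of the limit on the scale of CPM + 1. The 15 measured mitochondrial synthetases had a median of 0.04, with log2 ratios from -0.23 to 0.36 and none past 1.5-fold. Summed, the cytosolic set was 1.35-fold higher (1.33 to 1.37) and the mitochondrial set was at a ratio of 1.02 (0.97 to 1.07).

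The levels of these genes were highest at the top of the score. The 4442 cells between score 0 and the members were split into tertiles. Summed ATF4-pathway UMIs were 4785 CPM at score 0, 4900, 4903 and 5341 CPM in the low, middle and high tertile, 6531 CPM in the 402 members below the highest 1%, and 8272 CPM in the 101 cells of the highest 1%. Of the 57 genes, 19 had a higher level at every step, as had 2.78% of all measured genes. Atf4 went from 205.2 CPM at score 0 to 249.6 CPM in the high tertile and 567.4 CPM in the highest 1%. Ddit3 went from 11.3 to 13.4 and 93.0 CPM, and Herpud1 from 8.65 to 14.0 and 62.3 CPM. Asns and Mthfd2 reached 235.3 and 286.5 CPM. The low tertile held the deepest cells, with a median of 15403 UMIs, since a single UMI gives a low score in a deep cell. Its part in the small difference from score 0 was not tested.

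**Figure D3:**
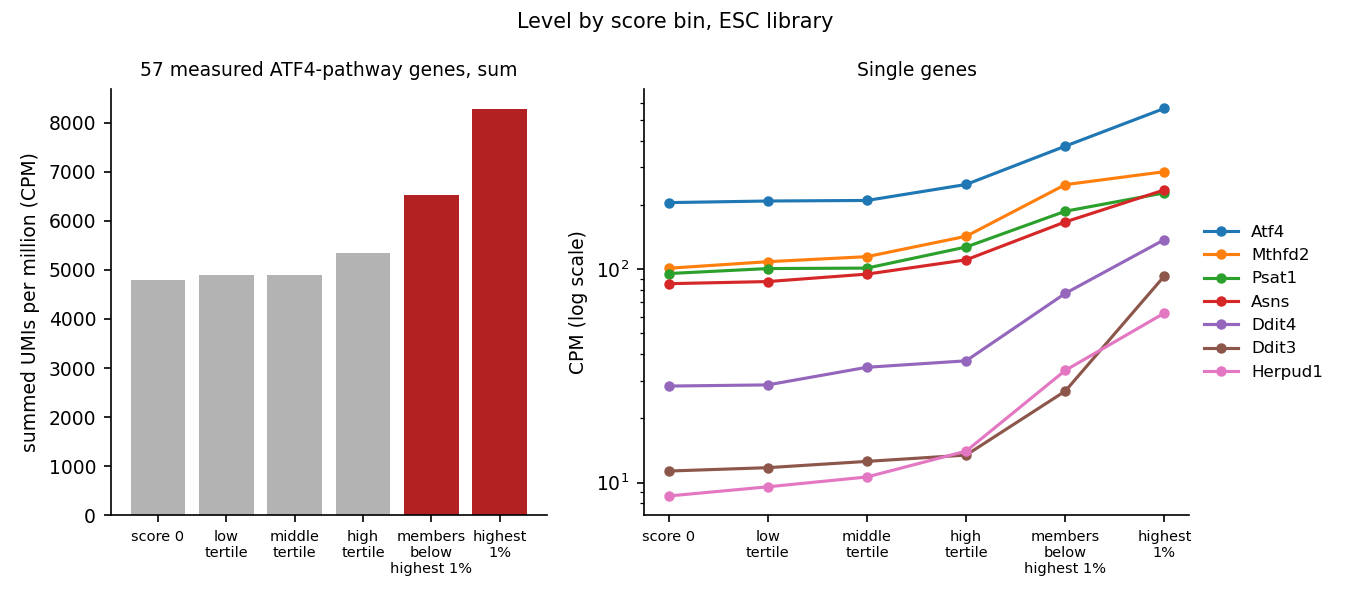
Left, summed CPM of the 57 measured ATF4-pathway genes by score bin, from 4785 at score 0 to 8272 in the highest 1% (red bars are members). Right, CPM of 7 of these genes on a log axis over the same bins, each highest in the top bin.

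Members were not led by a single score gene. Nupr1 gave the most score-gene UMIs in 172 members, Pck2 in 71, Trib3 in 58, Gpt2 in 53 and Chac1 in 19, and 130 members had ties. The median log2 ratio of the ATF4-pathway genes, taken against score-0 cells, was 0.62 in the Chac1-led, 0.55 in the Trib3-led, 0.45 in the Nupr1-led, 0.40 in the Pck2-led and 0.32 in the Gpt2-led members. Every one of these subsets lay above the median of all measured genes, which was between -0.01 and 0.04. Ddit3 was at 54.1 CPM in the Nupr1-led members and between 25.03 and 30.2 CPM in the other subsets. A single member held 21 of the 224 Ddit3 UMIs of all members, and the subsets were not compared without it. The Chac1-led set is small, and the order of these medians has no replicate check.

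Outside the ATF4 lists, the hypoxia-response and glycolysis genes had 6 of 14 measured genes past 1.5-fold and a median log2 ratio of 0.43. Their sum, in which the abundant glycolysis genes weigh most, was at a ratio of 1.12 (1.10 to 1.13). Vegfa, the vascular growth factor gene, was at 14.7 CPM (11.8 to 18.3) in members and 4.56 CPM (4.02 to 5.14) in score-0 cells, 3.24-fold higher (2.50 to 4.15). Adm (adrenomedullin) and Ndrg1 were 2.16-fold and 2.14-fold higher. Ankrd37, Bnip3 and Egln1 were 1.57-fold, 1.55-fold and 1.55-fold higher. The list median was similar in the cells marked for each line, at 0.57 and 0.56 (the marks are defined below).

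Immediate early genes had 3 of 8 past 1.5-fold, with unlike ratios in the lines. Fosb was 1.88-fold (18.3 and 9.73 CPM), Jun 1.81-fold (56.0 and 31.0 CPM) and Fos 1.73-fold higher (57.2 and 33.0 CPM) in members. Among WT-marked cells Jun was 3.88-fold higher (3.20 to 4.67), while among KO-marked cells its ratio was 0.97 (0.76 to 1.22). Fosb had ratios of 3.18 (2.16 to 4.55) and 1.08 (0.72 to 1.58). The difference between the lines was not tested.

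ER chaperone and unfolded protein genes were shifted slightly, with a median of 0.23 over 19 genes and 1 past 1.5-fold. That gene was Derl3, of ER-associated degradation, 2.22-fold higher (14.6 and 6.56 CPM). Within KO-marked and WT-marked cells the median of the ER list was lower, at 0.11 and 0.14. Xbp1, the factor of another ER stress branch, was 1.40-fold higher (77.4 and 55.5 CPM). Cholesterol synthesis genes had a median of 0.19 and none past 1.5-fold, led by Fdps with a ratio of 1.501. Mitochondrial chaperones had a median of -0.09 and none past 1.5-fold. Cytosolic heat shock genes had a median of 0.19, none past 1.5-fold and a summed ratio of 0.95811 (0.950023 to 0.96625), and their median within KO-marked and WT-marked cells was -0.003 and 0.05. NRF2 targets (median 0.02), p53 targets (-0.12) and ribosome biogenesis genes (-0.05) had none past 1.5-fold either. In the p53 list Sesn1 was lowest, at 8.08 and 10.98 CPM.

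The measured genes of the pluripotency and cell cycle lists all stayed within 1.5-fold. Summed, the naïve list was at a ratio of 1.13 (1.11 to 1.16) and the formative list at 0.87 (0.84 to 0.91). The naïve list had a median of 0.15 and no gene past 1.5-fold, with Tcl1 1.45-fold and Klf5 1.35-fold higher and Nanog lower, at 57.2 CPM in members and 74.3 CPM in score-0 cells, a ratio of 0.77 (0.69 to 0.86). The formative list had a median of -0.23, with Lef1 and Pou3f1 at ratios of 0.77 and 0.78. Of the core genes, Pou5f1 had a ratio of 0.84 (0.76 to 0.93) and Sox2 of 1.04. S-phase genes had a median of -0.04 and G2/M genes of 0.06.

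Markers of other cell types were low in members. The 10 feeder fibroblast markers summed to 20.9 CPM in members, 15.8 CPM in score-0 cells and 13.8 CPM in the cells between, with Col1a2 (by the rule) and Lum at 0 in members. At least 3 UMIs of them were found in 7 members (1.39%) and 41 score-0 cells (0.80%). The 10 primitive endoderm markers summed to 21.8, 19.6 and 18.3 CPM, with Gata6 at 0 by the rule. The 7 2-cell-like markers summed to 2.98, 4.66 and 2.99 CPM, with Zscan4c at 0 in members, and the 6 mesendoderm markers to 4.56, 5.24 and 5.72 CPM, with T at 0 in members. Without all cells that held 3 or more fibroblast or endoderm UMIs, the median ATF4-pathway ratio was 0.44. Cells in the highest 10% of doublet scores made up 6.36% of members and 5.10% of score-0 cells, and without them the median was 0.43.

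The 15 highest ratios among all measured genes held 8 of the ATF4 lists (Herpud1, Cebpb, Ddit3, Ddit4, Stc2, Aldh18a1, Slc7a1 and Mthfd2), together with Vegfa, Tm4sf1, Krt17, Igfbp4, Crct1, Krt19 and Cryab. Several of the latter rested on very few cells. Tm4sf1 was 3.49-fold higher, but 3 members held 63.0% of its UMIs, and without them the ratio was 1.30 (0.99 to 1.68). Crct1 went from 2.79 to 0.76 (0.53 to 1.06), Cryab from 2.68 to 1.03 (0.77 to 1.36) and Krt17 from 3.13 to 1.65 (1.34 to 2.02) in the same way. By contrast, Herpud1 without its 3 highest members was still 4.19-fold higher and Mthfd2 2.48-fold. Igfbp4, an IGF-binding protein gene, and Krt19, a simple-epithelium keratin gene, kept ratios of 2.24 and 2.16.

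The 10 lowest ratios were those of Meis2, Myo1f, Sox3, AA465934, Apoa2, Pnp2, Bmerb1, Arxes1, Gc and Pcdhga12. All were low in abundance, at 1.76 to 13.3 CPM in members and 5.65 to 27.8 CPM in score-0 cells. Meis2, a homeobox gene, had 10 UMIs in all members, with a ratio of 0.31 (0.15 to 0.58). Sox3, a neural progenitor and epiblast factor, was at 2.28 and 6.68 CPM, a ratio of 0.34 (0.18 to 0.59). Myo1f went from a ratio of 0.40 in all cells to 0.57 and 0.66 within KO-marked and WT-marked cells, and Gc from 0.48 to 0.71 and 0.66. Pnp2 has a close paralog and Pcdhga12 shares exons with its gene cluster, so their counts are uncertain.

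Since each library mixed 2 lines, members were counted by line. tdTomato was too sparse to mark single cells, so cells of at least 8000 UMIs were KO-marked by 2 or more UMIs of Ddx3y, Eif2s3y, Kdm5d, Uty and Ipp and no tdTomato. They were WT-marked by a tdTomato UMI with at most 1 such UMI, or by no such UMI. tdTomato was found in 10.4% of cells without such UMIs and in 1.31% of cells with 2 or more. Of 3761 KO-marked ESCs 230 were members (6.12%, 5.37 to 6.93), and of 3499 WT-marked ESCs 91 (2.60%, 2.10 to 3.18), a ratio of 2.35 (1.84 to 3.03). KO-marked cells were a little deeper, with a median of 13218 UMIs against 12155, and after thinning to 5000 UMIs the ratio was 2.21. With WT-marked cells taken only by tdTomato it was 2.56 (1.37 to 5.40). Of all kept ESCs 27.9% had no mark. Ddx3y, Eif2s3y, Kdm5d and Uty lie on chromosome Y, so the KO mark rests on Y-linked mRNA besides Ipp. The WT mark rests mostly on its absence, since 418 of the 3499 WT-marked ESCs had a tdTomato UMI. The line and its Y-linked expression cannot be told apart from the genotype, since each genotype is 1 line.

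The ATF4 genes were higher in members of both lines. The median log2 ratio was 0.61 among KO-marked cells (230 members, 1560 at score 0) and 0.35 among WT-marked cells (91 and 1896), with the members as chosen over all kept ESCs. The lists were less even. The other amino acid synthesis enzymes had medians of 0.87 in KO-marked and 0.15 in WT-marked cells, and the cytosolic synthetases 0.46 and 0.22. In the other direction, the transporters had 0.27 and 0.48, and the stress effectors 0.76 and 0.79. Herpud1 was 5.03-fold and 5.36-fold higher in KO-marked and WT-marked members, Mthfd2 2.52-fold and 2.45-fold, and Asns 2.96-fold and 1.71-fold. Ddit3 was 5.04-fold (4.002 to 6.34) and 2.72-fold higher (1.93 to 3.76), and Cebpb 3.10-fold (2.44 to 3.91) and 7.06-fold (4.81 to 10.2). The line genes themselves were higher in members in the pooled comparison. Ipp was 1.68-fold and Eif2s3y 1.58-fold higher in members, and within KO-marked cells these ratios were 1.15 and 1.11. Both are among the 189 genes. Over all marked ESCs, the score genes were higher in KO-marked cells by 1.19-fold (Nupr1) to 2.13-fold (Chac1). The summed ATF4-pathway genes of all marked ESCs, few of them members, were not higher, at 4947 CPM in KO-marked and 5117 CPM in WT-marked ESCs.

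**Figure D4:**
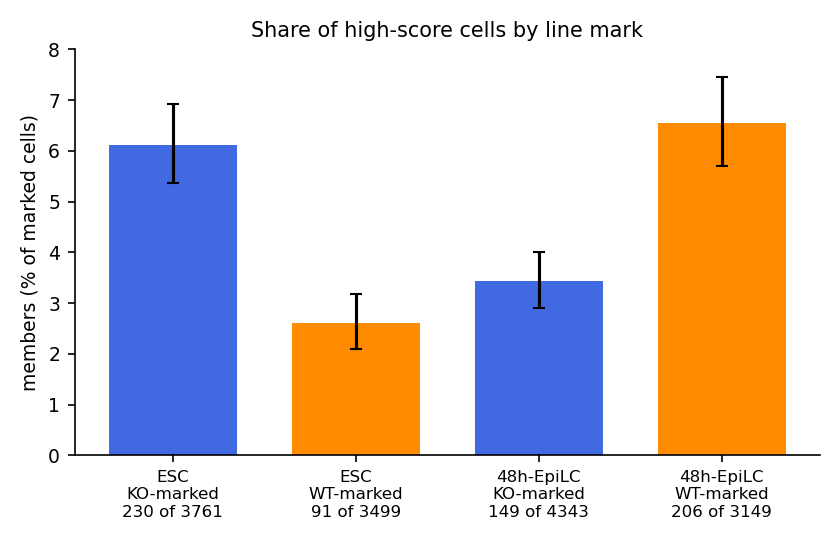
Members as a percentage of KO-marked (blue) and WT-marked (orange) cells in each library, with exact 95% binomial intervals that cover counting error only. In ESCs the KO-marked share is higher (6.12% against 2.60%), and in 48h-EpiLCs the WT-marked share is (6.54% against 3.43%).

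The same rule was applied to the 48h-EpiLC library, which the choice of ESC members had not used. It kept 9267 of 12427 barcodes, with 463 cells in the highest 5% (lowest score 3.602) and 3292 cells at score 0 (35.5%). This library was deeper, at a median of 13333 UMIs per barcode against 10965.5, with totals of 163771168 and 144584246 UMIs. The libraries shared 41 barcodes, 1 of them a member's. Left out in turn, the score genes were again higher in the high cells, from 2.63-fold (Gpt2) to 13.3-fold (Chac1). Of 9399 measured genes 109 were higher past 1.5-fold (1.16%) and 52 lower (0.553%). Of 59 measured ATF4-pathway genes 27 were higher past that fold and none was lower, with a median log2 ratio of 0.54. Ddit3 was 5.81-fold higher (4.82 to 7.01), Herpud1 5.28-fold (4.65 to 6.005), Asns 2.85-fold (2.68 to 3.03) and Atf4 2.43-fold (2.32 to 2.54).

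Gene by gene, 57 ATF4-pathway genes were measured in both libraries. Of these 44 had a log2 ratio above 0 in both, and 20 were past 1.5-fold in both. Of all 8852 genes measured in both libraries, 52 were higher past 1.5-fold in both. The share of all genes above 0 in both was not counted. One gene, Slc1a5, was past it in ESCs and not in 48h-EpiLCs (1.87-fold and 1.33-fold), and 5 were in the reverse case. Among the genes measured in both, those 52 are 33.3% of the genes higher in ESCs and 53.6% of the genes higher in 48h-EpiLCs. The hypoxia list had 8 of 14 genes past 1.5-fold in 48h-EpiLCs, with Vegfa 5.43-fold higher (4.30 to 6.85). The immediate early list had none of 8, with ratios of 1.12 (0.99 to 1.26) for Jun and 0.86 (0.72 to 1.01) for Fosb. Differences between the libraries were not tested, because stage and library cannot be told apart.

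**Figure D5:**
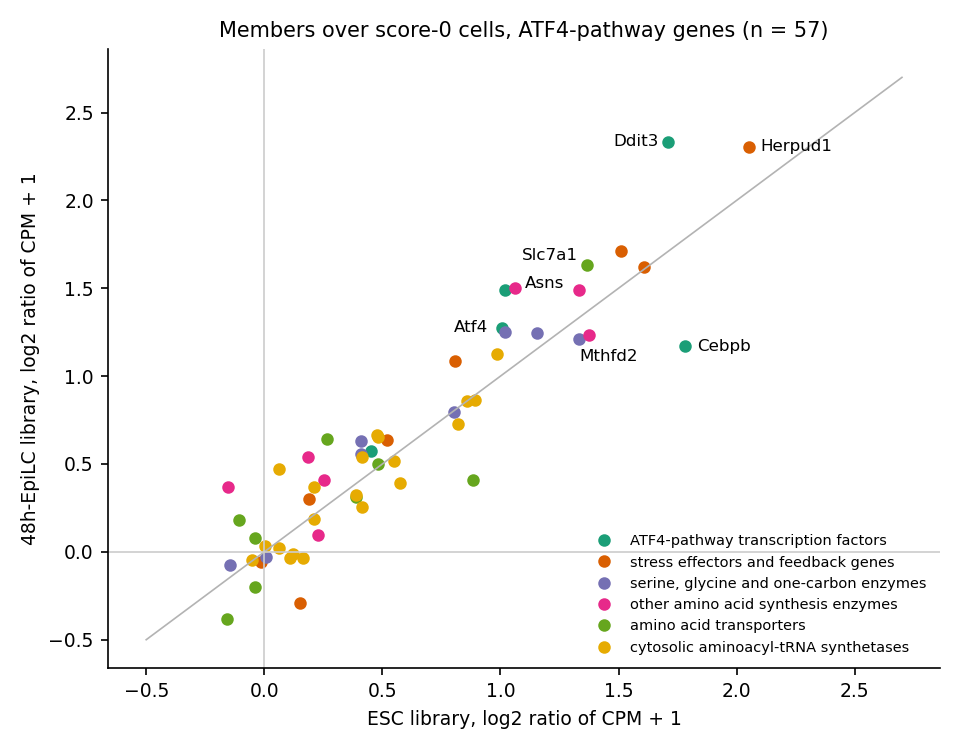
Log2 ratio of CPM + 1, members over score-0 cells, in the ESC library (x) and the 48h-EpiLC library (y) for the 57 ATF4-pathway genes measured in both, coloured by list, with the line of equal ratios. Herpud1 and Ddit3 lie at the upper right, and Cebpb lies farthest below the line.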

How the data were processed

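The deposited values were raw UMI counts per gene and barcode, produced by the authors with Cell Ranger (3.0.2) on mm10 with the tdTomato coding sequence added, from droplet-based 3′ libraries of ESCs and 48h-EpiLCs. Seurat (4) is named in the submitters' processing notes and was not used here. Strand use in counting was not stated. Total UMIs were 144584246 in ESCs and 163771168 in 48h-EpiLCs.

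Cells were kept, scored and grouped as the report states. UMIs were summed per group and scaled to the group total (CPM), so deep cells weigh more. Ratios carry exact 95% binomial intervals conditional on both counts, and levels and shares carry Clopper-Pearson (exact binomial) intervals. These cover counting error only. Cells are not replicates and there was 1 library per stage, so no test was run. Log2 ratios used CPM + 1 over genes at 5 CPM or more, and no correction for free RNA was made. Of a symbol with several identifiers, the row with the most UMIs was used. No doublets were removed. Doublet scores came from a reimplementation of Scrublet, and leaving out the highest 10% was an alternative.

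The members, the gene lists and the comparisons were chosen with earlier results of these data known. Named genes were the score genes, up to 6 measured genes per list with the largest absolute log2 ratio, and the 15 highest and 10 lowest ratios of all measured genes. Genes named outside this rule were chosen after their values had been seen. Alternatives were other shares of cells as members, other comparison cells, thinning to 5000 UMIs, a depth window, other cell and level filters, single lines, scaling, the pseudocount and the fold. Equal weight of cells, leaving out the 10 highest members, and members with 2 or more score genes were added after seeing the data. Gene positions came from GENCODE M21, promoters from RefSeq (GRCm38.p6). The comparison was tested on simulated data. Python 3.11.15, numpy 2.4.6, scipy 1.17.1, pandas 2.3.3, scikit-learn 1.9.0 and matplotlib 3.10.9 were used.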

Additional observations from a re-analysis of the deposited data

Results flagged for a closer look

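The share of members by line had opposite directions in the libraries. KO-marked over WT-marked, it was 2.35 (1.84 to 3.03) in ESCs and 0.524 (0.422 to 0.651) in 48h-EpiLCs, where 149 of 4343 KO-marked cells (3.43%) and 206 of 3149 WT-marked cells (6.54%) were in the highest 5%. With WT-marked cells taken only by tdTomato the ratios were 2.56 and 0.515. Chac1 was 2.13-fold higher in KO-marked ESCs (1.77 to 2.58) and at a ratio of 0.571 in KO-marked 48h-EpiLCs (0.519 to 0.628), and Pck2 had ratios of 1.81 and 0.708. Gpt2 had ratios of 1.64 and 1.02. The summed ATF4-pathway genes, which the rule did not use, were at 4947 CPM in KO-marked and 5117 CPM in WT-marked ESCs. In 48h-EpiLCs this sum was 4823 CPM in KO-marked and 5362 CPM in WT-marked cells. It covers all marked cells, few of them members, so it cannot show whether the share of members reverses. The difference between the libraries was not tested, and stage, library and culture cannot be told apart.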

How the results depend on the processing

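The median log2 ratio of the ATF4-pathway genes stayed above 0 under all 18 alternatives, from 0.28 with WT-marked cells only to 0.63 with KO-marked cells only (the highest 5% taken anew within each, 175 and 188 cells), all within the order-statistic interval over the genes (0.23 to 0.81). Counts of genes past the fold moved more, and the cause was not tested. Genes higher and lower in members were 410 and 258 with the highest 2% as members, 80 and 18 with the highest 10%, 55 and 18 with a level filter of 20 CPM, 453 and 229 with 1 CPM, and 31 and 9 past 2-fold. WT-marked cells only gave 292 and 175. The lower count alone moved to 148 with cells thinned to 5000 UMIs, 125 with cells of 8000 to 16000 UMIs and 227 with KO-marked cells only. The other alternatives left the counts within 1.5 times of 189 and 68. The share of members in KO-marked over WT-marked ESCs was 3.16 with the highest 2% and 1.803 with the highest 10%, and the other 7 alternatives kept it between 2.21 and 2.56. All 5 held-out score genes stayed higher against all other cells, which describes the score genes and is no independent check. The low scores rest on single UMIs, so a cell at score 0 may hold undetected mRNA. No paired analysis was possible because each stage was 1 library.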
